A study of Homo sapiens with 2 samples.

Results

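The cytosines described here lie in exons of long noncoding RNAs (lncRNAs), with the genes NEAT1 and MALAT1 left out. A cytosine was taken where at least 10 counts covered it, on the strand of an exon of a GENCODE release 44 basic transcript of gene type lncRNA (GRCh37), and where no protein-coding exon of that strand contained it. The rule used annotation and coverage and did not use the methylation counts. It kept 9854 cytosines in MCF10A and 13239 in MDA-MB-468, of 1584002 and 1271253 sites kept in the whole series. Either line held 19729 of them and both lines held 3364. The sites fell in 416 genes, of which 204 had sites in MCF10A, 318 in MDA-MB-468 and 106 in both.

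Cytosine methylation (m5C, 5-methylcytosine) was read by bisulfite sequencing of poly(A)-selected RNA, with 1 library for each line and no replicates. MCF10A is a mammary epithelial line that is not cancerous, and MDA-MB-468 is a breast cancer line. The labels name no treatment for either line. A test between them therefore compares these libraries, not the conditions normal and cancer.

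Bisulfite turns unmodified cytosine into uracil and leaves m5C as it is, so an unconverted count is read as m5C. A stably folded or otherwise protected cytosine can also stay unconverted. The lncRNAs include hosts that carry small nucleolar RNAs (snoRNAs) or microRNAs in their introns or exons, transcripts antisense to another gene, and regulators such as NORAD, which binds Pumilio proteins in the cytoplasm. Enzymes of the NSUN family deposit m5C in RNA, NSUN2 and NSUN6 at distinct sequence contexts.

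At each site the ratio is the unconverted share of the counts. Over all kept sites of the library 1.99% of counts were unconverted in MCF10A and 1.81% in MDA-MB-468. A site was called m5C where its counts exceeded this background in a one-sided Fisher's exact test at a Benjamini-Hochberg adjusted p of 0.05 over all kept sites. At a coverage of 10 the fewest unconverted counts called were 4 in each line, so a ratio under 40% could not be called there, and at a coverage of 50 they were 6. The median lncRNA site had 15 counts in MCF10A and 14 in MDA-MB-468. Epithelial markers did not split cleanly by line. Of the basal markers, KRT5 had 395 and 174 kept sites in MCF10A and MDA-MB-468 respectively and KRT17 had 241 and 293, LAMB3 had 1201 and KRT6A 173 in MCF10A alone, and KRT14 and TP63 had none. Of the luminal markers, KRT8, KRT18 and KRT19 had sites in both lines, and EPCAM and CDH1 had 175 and 108 in MDA-MB-468 alone. EGFR had 750 and 1843 sites and ERBB2 526 and 908, while ESR1 and PGR had none. Of the markers of other cell types, VIM had 486 sites in MCF10A alone, COL1A1 had 267 in MDA-MB-468 alone, and PTPRC and COL1A2 had none.

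The stretches on which the results turn are shown first, each as 29 nt of the RNA strand in DNA letters, 5′ to 3′, from GRCh37. Capitals mark the cytosines of the stretch that were called in either line, and lower case all other bases. The last base shown for ENSG00000270066 is also a cytosine called in MDA-MB-468, in a separate stretch. The first 3 lie opposite an exon of the other strand. TALAM1, the antisense transcript of MALAT1, is shown at chr11:65267071-65267099 (minus strand), IER3-AS1 at chr6:30711296-30711324 (plus) and MIF-AS1 at chr22:24237013-24237041 (minus).
TALAM1: CatCCtaCCaCtCCCaattaatCtttCCa
IER3-AS1: gtcctgcttCCaCcagtCCCacaaagctc
MIF-AS1: CtgtgCaggCtgCagagCgCgCaCggCtC

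The next 4 are runs of called cytosines in other genes that led the counts. SNHG29, a snoRNA host, is shown at chr17:16342678-16342706 (plus, near its 5′ end). NORAD is shown at chr20:34638808-34638836 (minus), MIR205HG at chr1:209605606-209605634 (plus) and MIR23AHG at chr19:13950812-13950840 (minus).
SNHG29: ggacccggttcCCCggCCcacagtggggg
NORAD: ctcctccagggCCCtCCaggccctccggc
MIR205HG: ccaccgCCaCCaCCgCCgCCgCCaccacc
MIR23AHG: gggcagcggggCCCaCCCacttgtcagtg

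The last 3 hold the sites called in both lines with the highest ratios outside TALAM1. ENSG00000259001 is shown at chr14:20811379-20811407 (minus), ENSG00000270066 at chr1:109643116-109643144 (plus) and ENSG00000283907 at chr19:36066738-36066766 (plus).
ENSG00000259001: gaggtcagactgggCaggagatgccgtgg
ENSG00000270066: ggtccccgaggtccCggagctggccctgc
ENSG00000283907: aatgggcaagaagCCCagctagctcagtc

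Most lncRNA cytosines were converted, and the calls were few and crowded into short runs. In MCF10A 108 of the 9854 sites were called, 1.10% (95% Wilson interval 0.909% to 1.32%), where 0.96% of all kept sites and 0.851% of the nuclear ones were called. In MDA-MB-468 131 of 13239 were called, 0.990% (interval 0.835% to 1.17%), against 0.84% of all kept sites and 0.742% of the nuclear ones. The intervals cover counting error only and treat neighboring sites as independent, although 1 read gives counts at several of them. No unconverted count was seen at 67.3% of the MCF10A sites and 75.7% of the MDA-MB-468 sites. Calls were made in 19 genes of MCF10A and 16 of MDA-MB-468, with 8 genes in both, and the leading 5 genes of each line held 64.8% and 71.8% of its calls. Of the MCF10A calls 87.0%, and of the MDA-MB-468 calls 90.1%, had another called site within 10 nt on the same strand, close to the 86.2% and 86.8% over all nuclear calls.

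The summed ratio depended strongly on a single gene. Over the lncRNA sites 2.83% of 331412 counts were unconverted in MCF10A, with 2.67% of 414714 in MDA-MB-468, above the 1.94% and 1.72% of protein-coding exons. NEAT1 stood at 2.18% and 2.55%, and MALAT1 at 1.69% and 1.41%. Without TALAM1, which supplied 22 and 23 of the sites, the lncRNA values were 2.23% and 1.77%, still above those of protein-coding exons. All nuclear kept sites gave 1.94% and 1.77%, so in MDA-MB-468 the value without TALAM1 was close to that of nuclear sites. The median over genes with at least 20 sites was 1.57% in MCF10A (111 genes) and 1.34% in MDA-MB-468 (156 genes). These lie below the libraries' own rates, but those are pooled over counts and include mitochondrial sites, so the measures are unlike.

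**Figure D1:**
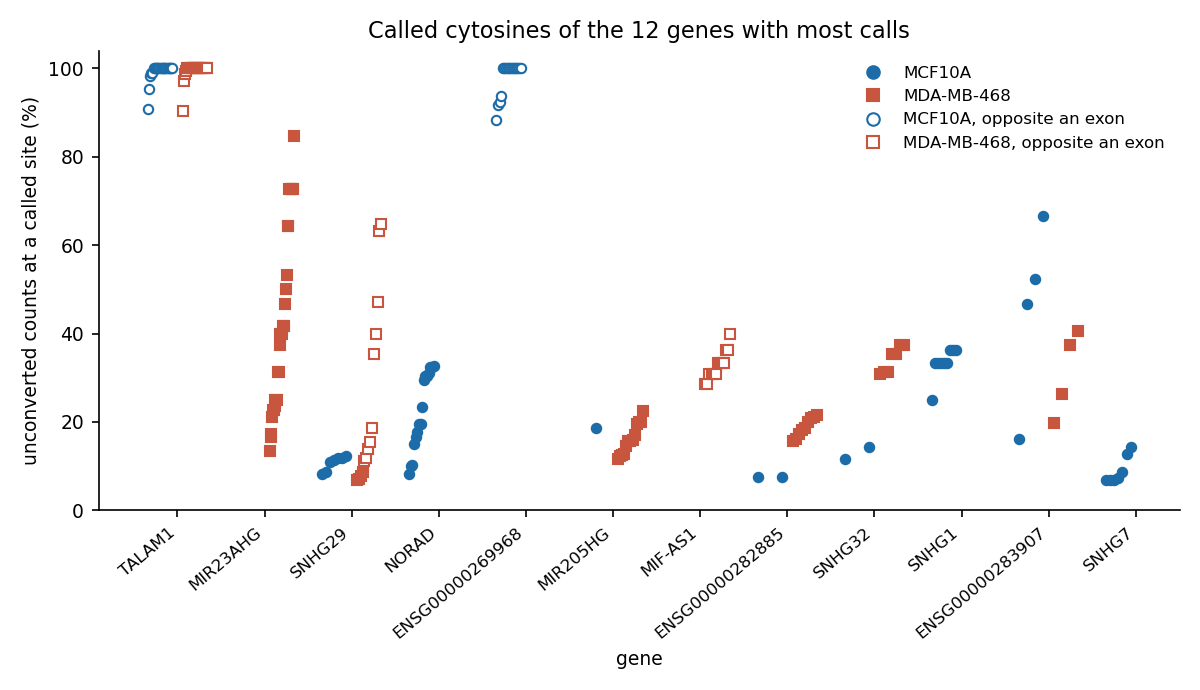
Ratio of each called cytosine (vertical axis, unconverted counts in percent) in the 12 lncRNA genes with most calls (horizontal axis), circles for MCF10A and squares for MDA-MB-468. Open symbols are sites opposite an exon of the other strand: those of TALAM1 and ENSG00000269968 sit at 88.2% to 100%, while the called sites of NORAD and SNHG7 reach at most 32.7% and 14.3%.

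Sites opposite an exon of the other strand carried the highest ratios. Such sites made up 9.76% of the lncRNA sites and 40.7% of the calls in MCF10A, and 12.7% and 35.1% in MDA-MB-468. The lncRNA sites with a ratio of 90% or more, 43 in MCF10A plus 23 in MDA-MB-468, were all among them. Without TALAM1 they numbered 21 in MCF10A and 0 in MDA-MB-468. Of all 552 and 143 nuclear sites at 90% or more, 57 and 44 faced an exon. Of the 8892 and 11562 lncRNA sites that faced no exon, none reached 90%, and 64 (0.720%) and 85 (0.735%) were called. Their intervals of 0.564% to 0.918% and 0.595% to 0.908% hold the 0.851% and 0.742% of nuclear sites. Their called sites had a median ratio of 25% in each line.

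TALAM1 was unconverted almost throughout. All of its 22 kept cytosines in MCF10A and all 23 in MDA-MB-468 were called, and all lay within 67 nt of exon 1 (chr11:65267066-65267132, minus strand). Of 2036 counts at these cytosines 2023 were unconverted in MCF10A (99.4%), while MDA-MB-468 had 3792 of 3813 (99.4%). Single sites ran from 90.9% to 100% in MCF10A and from 90.3% to 100% in MDA-MB-468, and the deepest were unconverted in 113 of 113 and 209 of 209 counts. The lines overlapped at every site, and none of the 22 shared sites differed between them. On the opposite strand, MALAT1 was read far more deeply and was mostly converted: its cytosines within 10 nt of the stretch had a median coverage of 1765 and 2612, and 2.48% and 2.12% of their counts were unconverted. The predicted pairing probability of the TALAM1 sites had a median of 0.0454. Whether these counts stem from TALAM1 RNA was not tested.

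**Figure D2:**
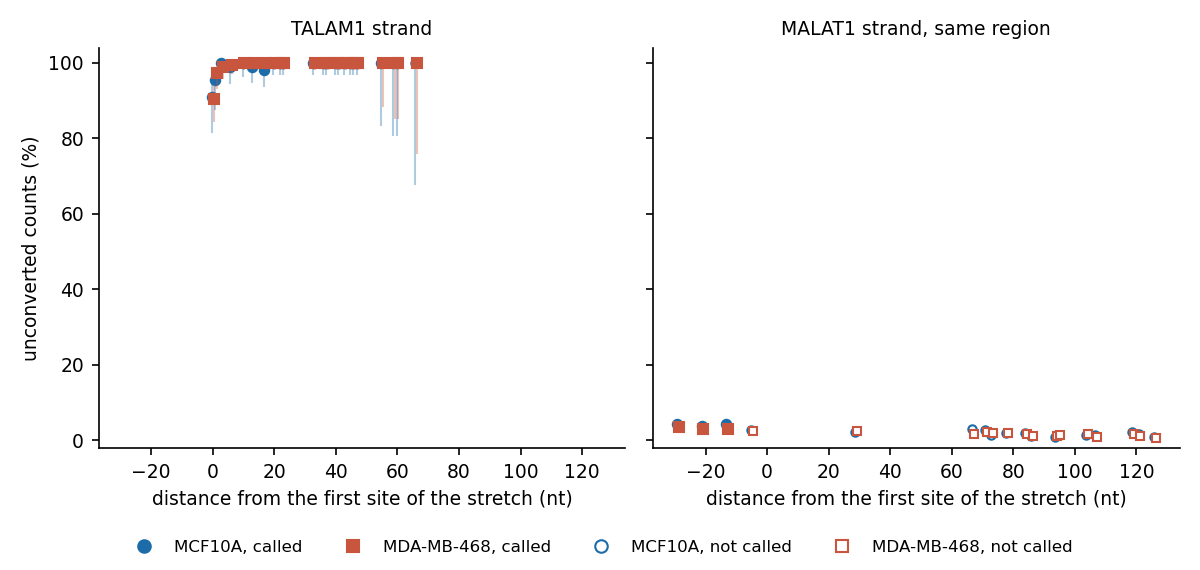
Ratio of each cytosine (vertical axis, percent) against the distance in nt from the most 5′ called site of TALAM1 (horizontal axis), on the TALAM1 strand (left) and on the MALAT1 strand of the same region (right). Bars are 95% Wilson intervals and filled symbols are calls; TALAM1 stays above 90% in both lines while every MALAT1 site lies below 5%.

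The other antisense runs were shallower and were seen mainly in one line. In ENSG00000269968, opposite GAPDH, 16 sites of MCF10A were called within 39 nt, with 208 of 213 counts unconverted (97.7%) at a coverage of 10 to 17. GAPDH itself, at a median coverage of 699 there, had a ratio of 1.24%. In MDA-MB-468 the same run held 3 sites at a coverage of 5, below the minimum, with 14 of 15 counts unconverted. In IER3-AS1, opposite IER3, 6 sites of MCF10A had 10 of 10 counts unconverted each. MDA-MB-468 stayed under 5 counts at each, and sites below 5 are not listed in the deposited counts. In MIF-AS1, opposite the gene of the cytokine MIF, the 13 called sites of MDA-MB-468 had 52 of 160 counts unconverted (32.5%), always 4 per site at a coverage of 10 to 14. In MCF10A 7 of these sites were covered, with 5 of 5 counts unconverted at each, too few to enter the test. Equal numbers of unconverted counts at neighboring sites are what the same few reads would give, but single reads are not in the tables.

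Among sites that faced no exon, 3 positions stood out of converted surroundings in both lines, the third with such surroundings on its 5′ side only. At chr14:20811393 in exon 1 of ENSG00000259001, 32 of 60 counts were unconverted in MCF10A (53.3%, interval 40.9% to 65.4%) and 321 of 710 in MDA-MB-468 (45.2%, interval 41.6% to 48.9%). The 29 other lncRNA cytosines within 50 nt gave 2.01% and 1.34%. At chr1:109643130 in exon 1 of ENSG00000270066, 11 of 27 counts (40.7%, interval 24.5% to 59.3%) and 68 of 116 (58.6%, interval 49.5% to 67.2%) were unconverted, against 1.83% and 1.17% at the 25 cytosines around it. Neither site differed between the lines (Fisher's exact test, unadjusted p = 0.228 and 0.132, adjusted p = 1 for each), and the intervals of the lines overlap at both. The cytosines around the second include chr1:109643144, called in MDA-MB-468 alone with 8 of 97 counts unconverted (8.25%). The third was a run of 3 cytosines in exon 2 of ENSG00000283907 (chr19:36066751-36066753). Its first cytosine had 11 of 21 counts unconverted in MCF10A (52.4%), against 21 of 56 in MDA-MB-468 (37.5%), and its second had 10 of 15 and 15 of 37. The last of the run, at 5 of 8 counts, was too shallow for a test in MCF10A and had 5 of 19 in MDA-MB-468. The flanking cytosines, all on the 5′ side, gave 1.58% and 1.16%. They were far deeper, and the nearest, 7 nt before the run, had 268 counts in MCF10A and 1053 in MDA-MB-468. Coverage thus fell steeply at the run, and no cytosine within 60 nt after it was kept. The same exon held another shared call at chr19:36066520, with 7 of 15 and 16 of 81 counts unconverted.

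**Figure D3:**
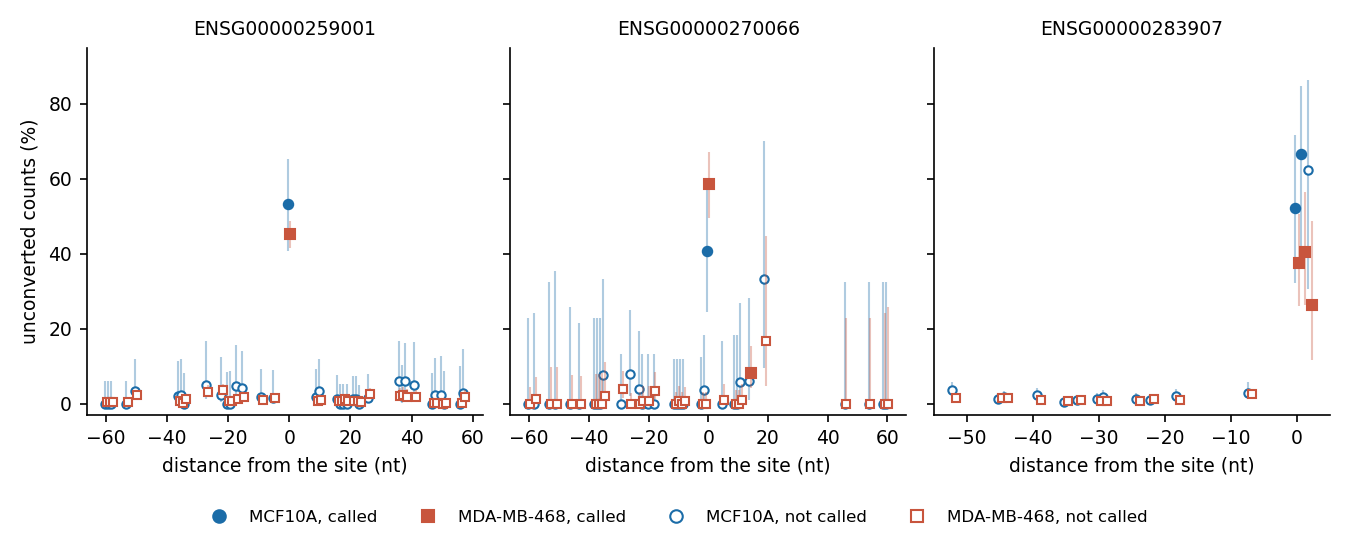
Ratio of the cytosines (vertical axis, percent) within 60 nt of the leading called site of 3 lncRNAs (horizontal axis, distance in nt along the RNA), circles for MCF10A and squares for MDA-MB-468. Bars are 95% Wilson intervals and filled symbols are calls; the site at 0 of ENSG00000259001 reaches 53.3% and 45.2% where its neighbors stay near the background.

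SNHG29 had calls in 2 regions, with opposite order of the lines. Near its 5′ end, 7 cytosines at positions 91 to 111 of the transcript were called in MCF10A and 4 of them also in MDA-MB-468. At the leading pair (chr17:16342675-16342676) 300 of 2519 counts were unconverted in MCF10A (11.9%), against 28 of 401 in MDA-MB-468 (6.98%). At the 5 cytosines that follow, 580 of 5634 (10.3%) and 58 of 968 (5.99%) were. All 7 cytosines had the higher ratio in MCF10A, but all were called there, which favored that order, and neighboring sites can share reads. None of the 7 differed between the lines after adjustment, and the lowest unadjusted p was 0.00422 in Fisher's exact test. MCF10A had over 900 counts at each of these sites and MDA-MB-468 175 to 210, and the sites not called in MDA-MB-468 had ratios of 3.98% to 5.15%. In exon 6, opposite LRRC75A, the order was reversed. There 10 sites were called in MDA-MB-468 and 0 in MCF10A, although MCF10A had 39 to 103 counts at each of them. At 4 sites within 7 nt, 37 of 70 counts were unconverted in MDA-MB-468 (52.9%) and 6 of 316 in MCF10A (1.90%). No cytosine of the LRRC75A strand around this run reached the 5 counts needed for a listing, in either line. The 15-mers around the 4 sites of this run occur 1331 to 234114 times in GRCh37.

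NORAD, the regulator with most sites, was called at 16 of 460 cytosines in MCF10A and at 0 of 50 in MDA-MB-468. Of these, 10 lay in 2 runs of the 5′ end, at positions 116 to 121 with 166 of 529 counts unconverted (31.4%) and at positions 152 to 163 with 103 of 502 (20.5%). All 5 cytosines of the first run lay between 30.5% and 32.4%. In MDA-MB-468 that run had 8 counts per site, below the minimum, with 13 of 40 unconverted (32.5%). The second run stayed there under the 5 counts needed for a listing. The lines therefore cannot be compared there. The sites of the first run have a predicted pairing probability of 0.988 at the median. A further run of 4 called sites (17.9%) lies in sequence whose 15-mers occur 55347 to 403167 times in the genome.

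MIR205HG, the host of miR-205, a microRNA of basal epithelial cells, held 13 calls in MDA-MB-468 and 1 in MCF10A, each among 135 kept sites. Of the 13, 12 lay in 17 nt of CC repeats (shown above), where 194 of 1169 counts were unconverted in MDA-MB-468 (16.6%) and 41 of 900 in MCF10A (4.56%). These 12 were called in MDA-MB-468 and not in MCF10A, and that choice favored higher ratios in MDA-MB-468. Their ratios were 12.4% to 22.4% there, against 3.90% to 8.00% in MCF10A, at neighboring sites that can share reads. None differed after adjustment over all sites (lowest unadjusted p = 3.85e-04, adjusted p = 0.306, Fisher's exact test).

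MIR23AHG, the host of the miR-23a cluster, had the most calls in MDA-MB-468, 31 of 1514 sites, and 0 of 192 in MCF10A. None of these 31 sites reached the coverage minimum in MCF10A, where at most 7 counts were seen. The highest ratios were in 2 of its runs. The 6 cytosines at positions 2914 to 2920 each had 8 of 11 counts unconverted (72.7%), while the 41 cytosines within 50 nt gave 0.892%. The 5 at positions 8027 to 8033 had 39 of 65 (60.0%), and a neighboring run of 10 sites had 55 of 135 (40.7%). The 15-mers of these last 2 runs occur 237 to 21708 times in the genome, whereas those of the first occur 3 to 6 times. At the 187 sites of MIR23AHG kept in both lines the ratio was 1.90% in MCF10A, against 1.42% in MDA-MB-468.

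Repeated sequence was more common among called sites. A site was counted as repeated where the 15 bases centered on it occur at least 1000 times in GRCh37 on either strand. Among sites that faced no exon, 17.2% of the called and 1.46% of the uncalled were repeated in MCF10A, and 31.8% and 1.48% in MDA-MB-468. Over all nuclear sites the shares were 2.31% and 0.277% in MCF10A and 6.53% and 0.202% in MDA-MB-468. Among all repeated nuclear sites, MCF10A had 6.67% called (311 of 4660), while MDA-MB-468 had 19.4% (614 of 3160). Of the repeated lncRNA sites 11 of 200 were called in MCF10A (5.5%), against 31 of 225 in MDA-MB-468 (13.8%), a lower share in each line. They included 7 sites of SNHG32 in MDA-MB-468, with 38 of 111 counts unconverted (34.2%) against 7 of 73 in MCF10A, and all 9 called sites of ENSG00000282885, which lie within RN7SL2, a gene of the signal recognition particle RNA. How reads from other copies of such sequence contribute to these counts was not tested. Calls that neither faced an exon nor were repeated numbered 53 in 12 gene labels of MCF10A and 58 in 11 of MDA-MB-468. Their median ratios were 25% and 22.6%. They made up 0.606% of the 8752 such sites for MCF10A, against 0.510% of 11365 for MDA-MB-468. Nuclear sites under 1000 copies, whether or not they faced an exon, were called more often, at 0.834% and 0.695% respectively.

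The line comparison found 8 differing sites in 2 genes. Of the 3364 sites kept in both lines, 8 (0.238%) differed at an adjusted p of 0.05 in the two-sided Fisher's exact test, against 0.0893% of all 812729 shared sites. All 8 were higher in MDA-MB-468, the direction of 0.0202% of all shared sites, where 0.0691% were lower. At an unadjusted p under 0.05, 55 lncRNA sites were higher in MDA-MB-468 and 36 lower. All 4 differing sites of SNHG29 lie in the exon 6 run. The largest difference was at a site of that run, with 1 of 79 counts unconverted in MCF10A (1.27%), against 12 of 19 in MDA-MB-468 (63.2%, adjusted p = 2.24e-06 in Fisher's exact test). The 4 of ENSG00000282885 had 175 counts in MCF10A and 231 in MDA-MB-468. Their ratios ran from 4.57% to 5.71% in MCF10A and from 18.2% to 21.2% in MDA-MB-468, with adjusted p from 0.0101 to 0.0444. Each of the 8 sits in a 15-mer that occurs at least 1000 times in the genome, so none was left once repeated sites were removed.

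**Figure D4:**
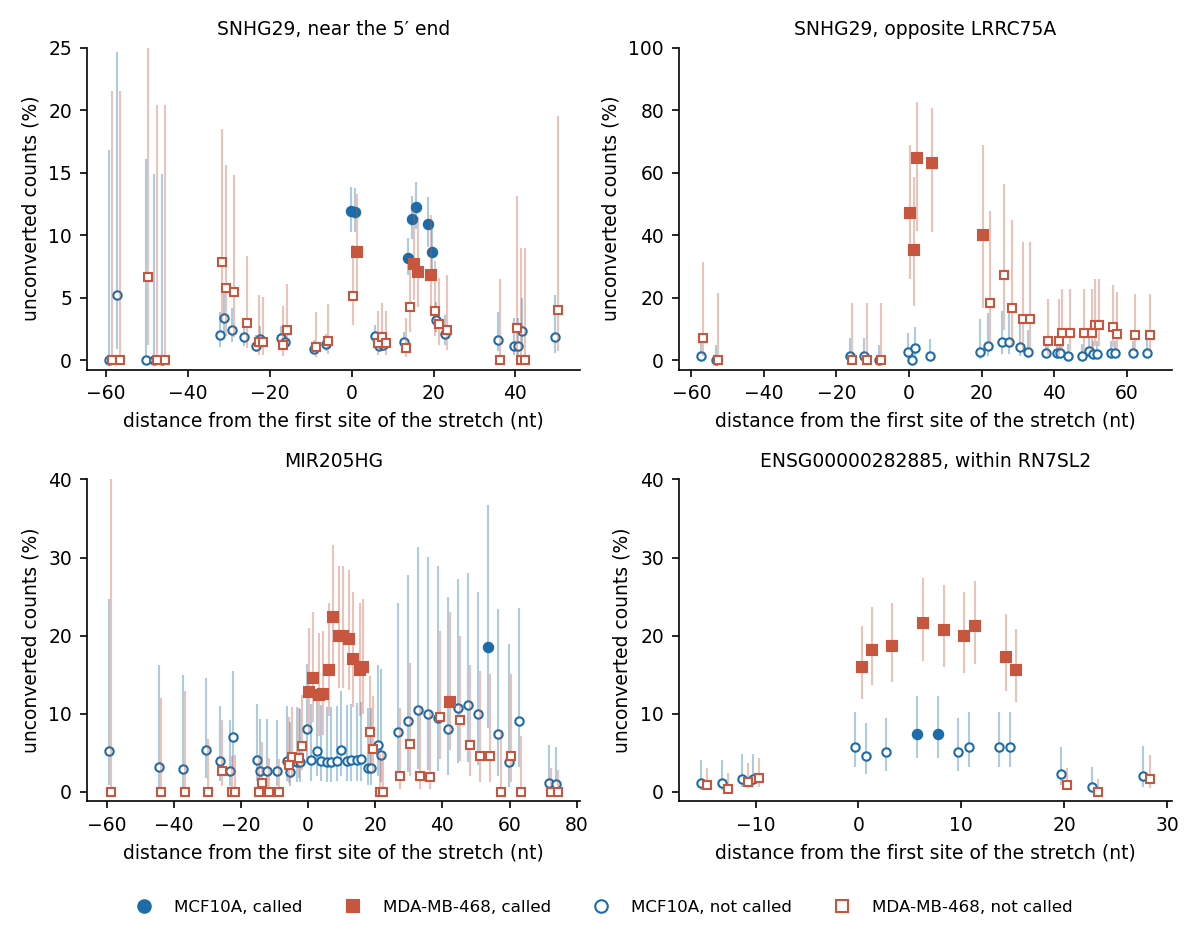
Ratio of the cytosines (vertical axis, percent) around 4 called stretches, with distance in nt from the first called site of the stretch along the RNA (horizontal axis), circles for MCF10A and squares for MDA-MB-468. Bars are 95% Wilson intervals, some running past the top, and filled symbols are calls. Within the called runs MCF10A is higher near the 5′ end of SNHG29 and MDA-MB-468 in the other 3 panels. In each panel that is the line with more calls, and the runs were picked by calls.

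Calls recurred between the lines mainly where TALAM1 supplied them. Of the 49 shared sites called in MCF10A, 33 were also called in MDA-MB-468 (67.3%, interval 53.4% to 78.8%), and of the 76 called in MDA-MB-468 the same 33 were called in MCF10A (43.4%, interval 32.9% to 54.6%). Of the 33, 22 were in TALAM1, and without it the shares were 11 of 27 (40.7%) and 11 of 54 (20.4%). Over all nuclear shared sites 48.2% and 63.0% recurred. Called or not, 46 of the 49 and 70 of the 76 sites had a ratio above the library background in the other line. Without TALAM1 these were 24 of 27 and 48 of 54. At a coverage of 10 a single unconverted count is enough for that. The shared lncRNA sites not called in a line had a median ratio of 0% in the other, and their share above background was not counted.

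The snoRNA hosts, 20 genes fixed as a list, had 25 of 1916 sites called in MCF10A (1.30%), against 21 of 1469 in MDA-MB-468 (1.43%), where 0.851% and 0.742% of all nuclear sites were called. The calls came from SNHG29, SNHG1, SNHG7 and SNHG32 in MCF10A and from SNHG29 and SNHG32 in MDA-MB-468. Most of those in MDA-MB-468 were the exon 6 sites of SNHG29 opposite LRRC75A and the repeated sites of SNHG32. SNHG1 was called at 9 of 86 sites in MCF10A, at 25% to 36.4% with 4 unconverted counts each, and at 0 of 105 in MDA-MB-468. Its 8 called sites with at least 10 counts in both lines had 2 or 3 unconverted counts in MDA-MB-468 (16.7% to 25%), and none of them differed between the lines. SNHG7 was called at 7 of 208 sites in MCF10A, 5 of them between 6.80% and 8.76% at over 200 counts. In MDA-MB-468 these positions stayed under the 5 counts needed for a listing. GAS5, the host and growth-arrest transcript, had no call and low ratios, 0.820% in MCF10A (88 sites) and 0.613% in MDA-MB-468 (39 sites). SNHG12, EPB41L4A-AS1, SNHG8, SNHG17 and ZFAS1 had no call in either line over 53 to 115 shared sites each.

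The microRNA hosts of the fixed list had 1 of 414 sites called in MCF10A, against 13 of 441 in MDA-MB-468, all in MIR205HG, where 0.851% and 0.742% of nuclear sites were called. The list did not hold MIR23AHG, described above, or MIR663AHG, with 2 calls in MDA-MB-468. MIR210HG, the host of the hypoxia-induced miR-210, had 145 sites in MDA-MB-468 at 0.958% and none in MCF10A. The regulators had 17 of 808 sites called in MCF10A, 16 in NORAD and 1 in PVT1, and 0 of 496 in MDA-MB-468, beside the same 0.851% and 0.742% of nuclear sites. At the latter share only a few calls among 496 sites would be made, so the 0 is not read as a difference. HOTAIR, UCA1, FTX and TERC, the telomerase RNA, had sites in MDA-MB-468 alone, with ratios of 1.34% to 2.45%. CRNDE, covered at the same 48 sites in both lines, stood at 1.54% and 1.91%.

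At gene level, several lncRNAs without calls had summed ratios that lay apart in the lines. Among the 45 genes with at least 20 shared sites, 28 had the higher summed ratio in MCF10A and 17 in MDA-MB-468, by over 2-fold in 13 and 3 of them. All nuclear shared sites gave 2.04% and 1.78%. HOTAIRM1, a transcript of the HOXA cluster, stood at 4.72% in MCF10A and 0.854% in MDA-MB-468 over 95 shared sites, and had no unconverted count at 56 of its 109 sites in MCF10A and at 96 of 110 in MDA-MB-468. SNHG15 stood at 6.69% and 2.12% over 57 sites, SNHG17 at 3.07% and 1.06% over 89, and IRX2-DT, which starts next to the homeobox gene IRX2, at 3.01% and 1.44% over 229. In the other direction, MIRLET7BHG, a host of let-7 microRNAs, stood at 1.008% and 2.33%. No single site of these 5 genes was called or differed. Summed ratios over a gene were not tested, because neighboring cytosines share reads and each line is 1 library.

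**Figure D5:**
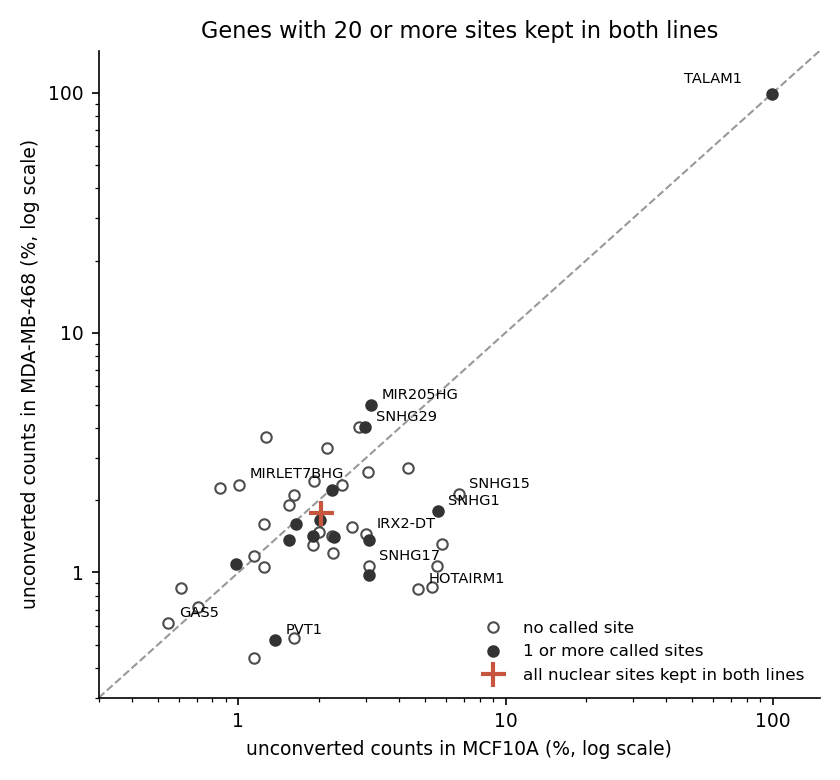
Summed ratio of the 45 lncRNA genes with at least 20 sites kept in both lines, MCF10A on the horizontal and MDA-MB-468 on the vertical axis, both in percent on log scales; 1 point is 1 gene, filled where it holds a called site, and the dashed line marks equal values. TALAM1 lies at 99.4% in both lines, and 28 genes lie below the line, higher in MCF10A.

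Sequence context and fold were described without a test, with letters read on the RNA strand only. Among sites that faced no exon, 70.3% of the MCF10A calls and 83.5% of the MDA-MB-468 calls had a C directly before or after, where 52.6% and 56.6% of all such sites did. The nuclear calls had 74.4% and 75.2%, against 55.0% and 56.6% of nuclear sites. The CNGGG letters with the called C in front, described for NSUN2, held 7 of 64 such calls in MCF10A (10.9%), against 3 of 85 in MDA-MB-468 (3.53%). They held 3.18% and 3.50% of all nuclear sites, and 8.24% and 8.68% of the nuclear calls. The CTCCA letters described for NSUN6 held 2 and 1 of these calls and 0.622% and 0.610% of all nuclear sites. A CG step followed 14.1% and 17.6% of them, against 25.1% and 24.5% of nuclear calls. The median predicted pairing probability of calls that faced no exon was 0.768 for MCF10A, against 0.729 for MDA-MB-468, and that of the uncalled sites 0.578 and 0.617. The share called did not rise steadily with pairing: in MCF10A it was 1.02% of sites under 0.25, 0.486% from 0.25 to 0.5, 0.226% from 0.5 to 0.75 and 1.27% from 0.75 up. The same ranges gave 0.537%, 0.725%, 0.455% and 1.08% for MDA-MB-468. Of the MCF10A calls 40.6% lay in the first 200 nt of a transcript, where 26.2% of the uncalled sites did, and in MDA-MB-468 21.2% against 24.3%.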

How the data were processed

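RNA BS-Seq tables of 1 MCF10A and 1 MDA-MB-468 library were used. The authors deposited whole-number counts of unconverted (m5C) and converted (NakedC) reads for each cytosine with a coverage of at least 5, after trimming and alignment to hg19. The methods name Trim Galore and MeRanTK and the labels list Trim Galore and Bismark, without versions. No normalization, p-value or structure filter is in the deposited counts. The libraries hold 76098976 and 90960018 summed counts.

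Sites with a coverage of at least 10 in exons of GENCODE release 44 basic transcripts on GRCh37, together with mitochondrial sites, were kept, called and compared between lines with Fisher's exact test and Benjamini-Hochberg adjustment over all kept sites (Python 3.11.15, scipy 1.17.1, numpy 2.4.6, pandas 2.3.3). The protein-coding exclusion used exons of all protein-coding transcripts. QNB, the differential test of the methods, was not used because it is not installed. Shares carry 95% Wilson intervals. Pairing probabilities came from ViennaRNA 2.7.2 on the longest basic lncRNA transcript of each site (window of 300 nt, pairing distance of 150 nt, 70 degrees), not from the filter of the methods. The code was tested on simulated counts.

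Members, gene lists and tests were chosen with earlier results of these data known. Named genes are the 12 with most calls, the 8 with most shared sites, those of the fixed lists with at least 20 sites, and the genes of the 10 leading shared and the differing sites covered by 20 or more counts in both lines. TALAM1 took all 10 places among shared sites, so the next sites were added after their values were seen, as were IER3-AS1 and the repeated 15-mers. The gene PECAM1 of the marker list was not analysed here. Sequences are printed for 10 of the called stretches, and some others are not reported here.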

Additional observations from a re-analysis of the deposited data

How the results depend on the processing

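Neither line has a replicate, so no result carries an error between cultures, and coverage limits what could be called. The calls in MCF10A (108) and MDA-MB-468 (131) came to 66 and 79 at a minimum coverage of 20, 360 and 263 at 5, 70 and 85 with the background rate doubled, 56 and 59 without sites of a pairing probability over 0.5, and 64 and 85 without sites opposite any exon, a setting added after seeing the data. The other settings (6 planned, 3 added: protein-coding exclusion by basic transcripts, without TALAM1, without repeated 15-mers) gave 80 to 116 and 95 to 133. The 8 differing sites came to 4 at a coverage of 20, 3 without paired sites, 4 without small RNA and pseudogene exons, 4 without sites opposite any exon and 0 without repeated 15-mers, both of these added later. A coverage of 5, a difference of at least 0.1 and the G test gave 8, 8 and 10. The share of MCF10A calls found in MDA-MB-468 (67.3%) was 80.0% at a coverage of 20, and 40.7% both without TALAM1 and without sites opposite any exon. The converse share (43.4%) was 20.4% and 25% under these added settings. The summed ratio in MCF10A (2.83%) came to 2.97% at a coverage of 20, 2.43% as a mean of sites, 3.35% without paired sites, 1.57% as a median of genes, 2.23% without TALAM1 and 2.20% without sites opposite any exon. That in MDA-MB-468 (2.67%) came to 3.03%, 1.96%, 4.02%, 1.34%, 1.77% and 1.75% in the same order, and to 2.44% at a coverage of 5. The cause of each fall was not tested. No paired analysis was possible because each line has 1 library.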
